A study of Drosophila melanogaster with 4 samples.

Results

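The regions described here are the stretches of the Drosophila melanogaster X chromosome that were enriched for the chromatin protein MBD-R2 in both of 2 ChIP-seq libraries. They are the X regions in the list deposited for ChIP replicate 1 that overlap an X region of the replicate 2 list by at least 1 bp, and are called matched regions. Of 888 replicate 1 regions on X, 783 qualified (88.2%, 95% Wilson interval 85.9 to 90.1%, which covers counting error only), out of 4146 regions matched in this way on all sequences. Both ChIP libraries, made with the antibody Q4167, and the 2 input libraries came from wild-type embryos of the Oregon-R strain aged 14 to 16 h. Each input served as the background of the ChIP library of the same number. The chromatin came from embryos laid in population cages, so many animals contributed to each library, and the labels give no sex. In such bulk chromatin, binding in few cells and weaker binding in many cells cannot be told apart. All positions are on FlyBase release 5, where X is 22.4 Mb long and its numbering runs from the telomere to the side of the centromere.

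MBD-R2 is a subunit of the fly NSL complex. The complex carries the histone acetyltransferase MOF, which acetylates histone H4, and is known for binding near the start sites of broadly expressed genes. MOF also belongs to the MSL complex, which raises transcription of the single X of males, so the X is a chromosome on which both assemblies of MOF are found. A region in these lists marks where ChIP reads were enriched. It names neither the bound gene nor the sex of the cells. Genes and sequences are not placed in regions here, because the annotation used here is of another release, release 6.

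The matched regions were found at nearly the same places in both libraries. Of the 783 matched regions of replicate 1, 742 overlapped 1 region of replicate 2, 37 overlapped 2 and 4 overlapped 3. Seen from replicate 2, 755 of its 900 X regions (83.9%, 95% Wilson interval 81.3 to 86.1%) overlapped a replicate 1 region. This interval also covers counting error only and treats regions as independent, although 135 of the 783 shared a replicate 2 region with another. Where 1 region stood against exactly 1 other, which held for 621 pairs, the midpoints differed by a median of 133.5 bp and by at most 576 bp in 90% of pairs. Start and end shifted by similar amounts, with median absolute offsets of 141 bp and 150 bp. Replicate 2 gave the wider region in 392 of the 621 pairs, and the median width difference of replicate 1 minus replicate 2 was -114 bp. The rule itself requires an overlap of only 1 bp, but the median matched region had 98.5% of its bases under replicate 2 regions, and 605 had at least 90%. Close to the limit of the rule, the shortest overlap was 22 bp, for the region at X:4437938-4439415 with a score of 0.601 in replicate 1. The unmatched replicate 1 region closest to a replicate 2 region, at X:19377027-19378707 with a score of 0.532, missed it by 68 bp.

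The authors' score, 1 number per region on a scale that no label or header gives, ranked the X regions alike in both libraries. Over the 621 one-to-one pairs the Spearman correlation of the scores was 0.942, and that of the widths was 0.895. These correlations describe regions within 2 libraries that share a genome and a caller, and carry no p-value. Over all 783 matched regions, each paired with its best-scoring partner, the score correlation was 0.879, where a narrow piece split off in 1 library is set against the score of the whole partner. The median score difference within pairs, replicate 1 minus replicate 2, was -0.0156 and the median absolute difference was 0.0984, so neither list scored consistently higher. Replicate 1 scored higher in 282 of 621 pairs. The largest difference was at the very start of the X sequence, where X:81-2950 scored 1.84 in replicate 1 and 1.31 in replicate 2. The next was at X:12439490-12441703, with 0.795 in replicate 1 and 0.285 in replicate 2. These pairs were chosen for their difference after the values were seen.

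**Figure D1:**
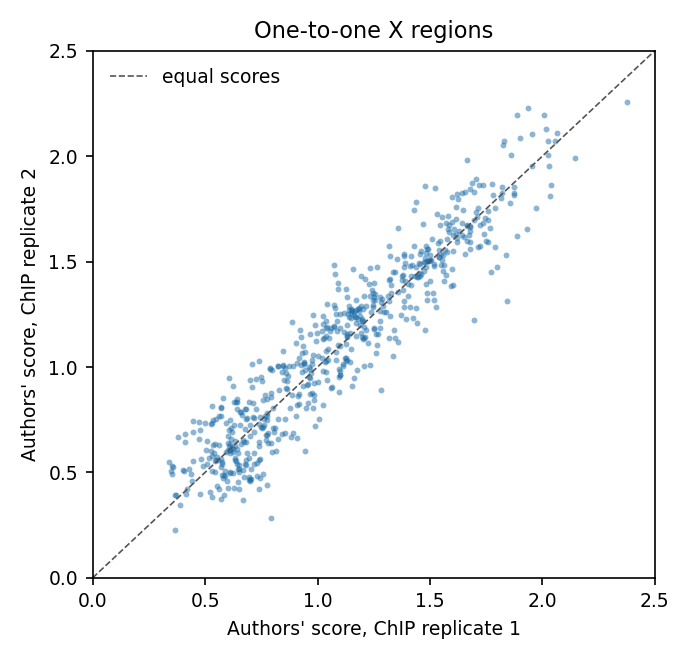
Authors' score of each of the 621 one-to-one X regions in ChIP replicate 1 (horizontal) and ChIP replicate 2 (vertical), 1 point per region, with a dashed line at equal scores. Points lie along the line over the whole range (Spearman correlation 0.942), and the 1 point farthest to the right has scores of 2.38 and 2.26.

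Matched regions covered 12.97% of X in replicate 1 and 13.6% in replicate 2, or 13.3% ± 0.41 (SD, n = 2), in very uneven amounts along the chromosome. In the 44 full windows of 500 kb, the covered share ran from 3.44% to 26.1%, with a median of 12.9% (means of both replicates). No full window was without a matched region. The number of replicate 1 regions per window ran from 5 to 37 with a median of 17. The largest SD of any window was 1.42 percentage points, and the Spearman correlation between replicates over the 44 windows was 0.986. Only regions that overlap the other list were counted, so the rule itself fixes part of this agreement. Sorted by number of regions, 15 of all 45 windows held 50% of the regions in replicate 1, and 16 did in replicate 2. By the mean of both replicates this was 34.4% of windows on X. The large autosomal arms had 31.9% on 2L, 32.0% on 3L, 33.9% on 3R and 37.2% on 2R, so X was not unusual in this.

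By mean covered share, the densest window lay at X:1500001-2000000, where 37 regions of replicate 1 covered 25.2% and 32 of replicate 2 covered 26.9%. Next by covered share were X:15500001-16000000, with 23.4% in replicate 1 and 24.5% in replicate 2, and X:2000001-2500000, with 22.97% and 24.8%. By number of replicate 1 regions, X:5500001-6000000 came second with 35, ahead of these with 30 each. By the mean covered share of both replicates, the emptiest full windows were X:20500001-21000000, with 3.47% in replicate 1 and 3.404% in replicate 2, and X:3000001-3500000, with 3.55% and 3.76%. Next lowest by that mean was X:9500001-10000000, with 4.92% and 4.78%. Dense and sparse windows were interleaved along X and did not form 1 gradient. Among windows of 1 Mb, the one from 1000001 had 63 replicate 1 regions and the one from 2000001 had 47, followed by 22 and 25 from 3000001 and 4000001, and by 45 and 45 from 5000001 and 6000001. The lowest full 1 Mb window, from 14000001, held 19 regions and was followed by 46 and 46.

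**Figure D2:**
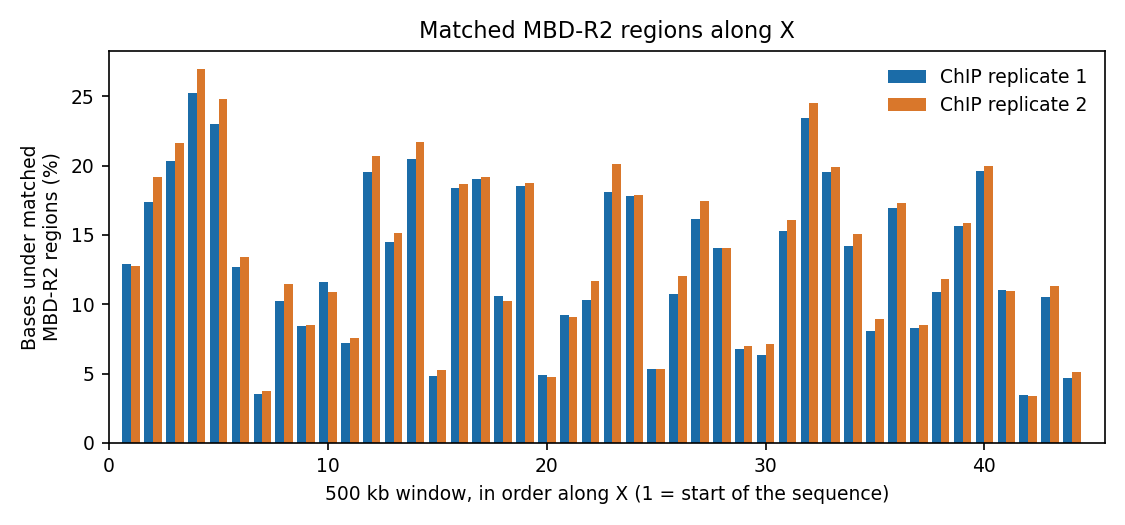
Percent of bases under matched MBD-R2 regions (vertical) in each of the 44 full 500 kb windows of X, numbered in order from the start of the sequence (horizontal), with 1 bar per ChIP replicate. Both replicates, each limited to regions that overlap the other list, rise and fall together, from 3.44% in window 42 to 26.1% in window 4 (means of both).

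Cut into 4 parts of equal length, X held 213, 197, 217 and 156 matched regions of replicate 1, from the telomere to the side of the centromere. In replicate 2 the counts were 201, 190, 216 and 148. The part next to the centromere thus held the fewest in each list. The regions there were not weaker, with a median score of 1.13 in replicate 1 and 1.16 in replicate 2, against 1.09 and 1.14 over all of X. Median widths in the 4 parts stayed between 3017 and 3183 bp in replicate 1, and between 3321 and 3490 bp in replicate 2. Density and score were also almost uncorrelated between windows. Over the 44 full 500 kb windows, the number of regions and their median score had a Spearman correlation of 0.034 in replicate 1 and 0.061 in replicate 2. The number of regions and their median width had one of 0.275 in replicate 1 and 0.330 in replicate 2. Among the full 1 Mb windows, the lowest median score was in the window from 12000001, at 0.842 in replicate 1 and 0.828 in replicate 2. The highest was in the window from 20000001, which held only 20 and 23 regions, at 1.30 in replicate 1 and 1.34 in replicate 2.

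The regions stood close together within dense stretches. The gap between neighbouring matched regions had a median of 5.95 kb in replicate 1 and 6.06 kb in replicate 2, and a mean of 24.9 kb and 25.7 kb. Gaps of at most 1 kb numbered 150 of 782 in replicate 1 and 133 of 754 in replicate 2. Gaps longer than 100 kb numbered 57 in each list, and these few held 52.5% of all bases between matched regions in replicate 1 and 52.8% in replicate 2. The longest gap between matched regions was 461 kb in each list.

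Chains of matched regions with gaps of at most 5 kb are called runs here. In replicate 1, 241 regions (30.8%) had no neighbour within 5 kb, 104 runs were pairs, and 82 runs of at least 3 held 334 regions. In replicate 2, 235 regions (31.1%) stood alone, 92 runs were pairs, and 85 runs of at least 3 held 336 regions. Regions in runs of at least 3 made up 43.6% ± 1.3 (SD, n = 2) of the matched regions. Some of the shortest gaps were places where the 2 lists cut 1 enriched stretch differently. Of the 150 replicate 1 gaps of at most 1 kb, 65 were spanned by a single replicate 2 region, and of the 206 gaps of 1 to 5 kb, 8 were. When the matched regions of both lists were joined wherever they overlapped, 710 regions remained, 40.8% of them lay in runs of at least 3, and the longest run fell to 7 regions.

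**Figure D3:**
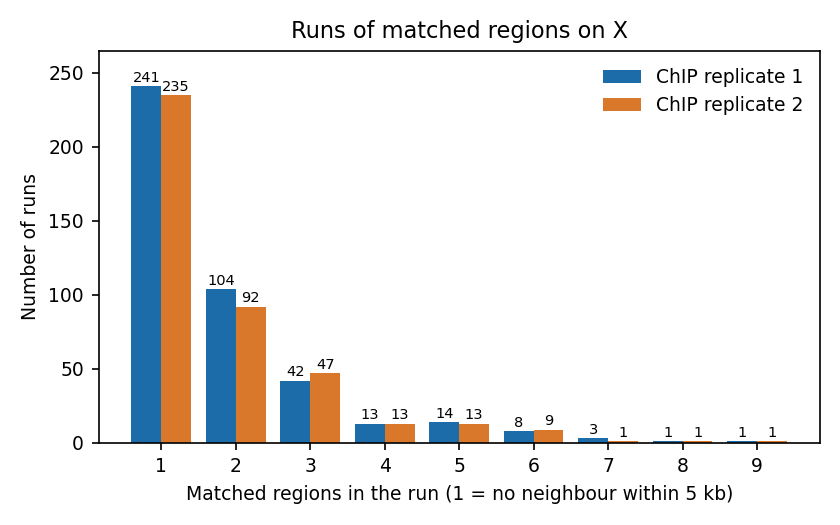
Number of runs (vertical) by the number of matched regions in the run (horizontal), where a run is a chain of regions with gaps of at most 5 kb, for each ChIP replicate. Lone regions were the most frequent class, with 241 in replicate 1 and 235 in replicate 2, and each list had 1 run of 9, at different places.

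The run with the most replicate 1 regions, 9, spanned 48.2 kb at X:6147830-6196038. Its regions overlapped 7 regions of replicate 2 and covered 73.4% of the span. Its first region, X:6147830-6151320, had a score of 2.07 in replicate 1 and 2.11 in replicate 2, the third highest mean score on X. An 11.1 kb region near its other end, X:6180208-6191342, scored 1.74 and 1.66. Between them lay weaker regions, down to 0.504 for X:6178382-6180198 in replicate 1, which replicate 2 did not separate from the 11.1 kb region. In the combined list 1 region of 27.1 kb spanned the middle of the run, and the last region of the run stayed separate.

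**Figure D4:**
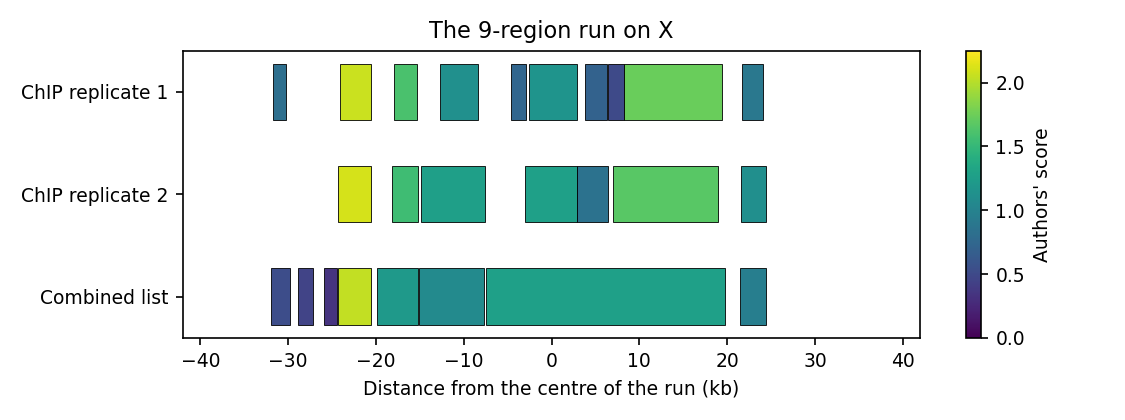
Regions of the run of 9 in replicate 1 and its flanks in ChIP replicate 1, ChIP replicate 2 and the authors' combined list (rows), by distance from the centre of the run in kb (horizontal), coloured by the authors' score. The first region of the run is bright in every row, with scores of 2.07, 2.11 and 2.04, and 1 region of the combined list, 27.1 kb wide, spans several regions of each replicate.

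A run of 8 at X:2590235-2634273 had 8 matched regions in each list, scores from 0.894 to 1.80 in replicate 1 and from 0.693 to 2.07 in replicate 2, and 79.2% of its 44.0 kb covered. A run of 7 in replicate 1 at X:2028045-2080343, in one of the 3 densest windows, had a wider span of 52.3 kb. It was the run of 9 in replicate 2, where a 10.0 kb region of replicate 1 was 3 regions. The run at X:1261520-1296627 had 7 regions in replicate 1 and 6 in replicate 2, over 35.1 kb. The run at X:21208532-21247697 also had 7 and 6, over 39.2 kb, and lay in the sparse part of X toward the centromere. Of the 5 largest runs, 3 thus lay between positions 1261520 and 2634273, toward the telomere, bounds read off these runs themselves. The 1 Mb windows from 1000001 and 2000001 there also held the most replicate 1 regions, 63 and 47. Whether large runs gather there beyond that density was not tested. The run of 8 lay in the 500 kb window from 2500001, which held 17 replicate 1 regions, the median of the full windows.

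Lone regions had slightly lower median scores than regions in runs, with wide overlap. Lone regions had a median score of 1.03 in replicate 1, and regions in pairs, in runs of 3 to 4 and in runs of 5 or more had medians of 1.10, 1.12 and 1.13. In replicate 2 the medians were 1.04, 1.11, 1.21 and 1.20. The middle 50% of scores overlapped widely, from 0.697 to 1.41 for lone regions and from 0.797 to 1.40 for runs of 5 or more in replicate 1. No test was made of these differences. The scores of neighbours were almost uncorrelated. The Spearman correlation between the score of a region and that of the next one along X was 0.026 in replicate 1 and 0.014 in replicate 2, and 0.059 and 0.049 for neighbours within 5 kb, of which there were 356 and 343.

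The typical matched region on X was a few kilobases wide, with medians of 3120 bp (replicate 1) and 3422 bp (replicate 2), or 3271 bp ± 214 (SD, n = 2). Widths ran from 1306 bp to 21.5 kb in replicate 1, and from 1305 bp to 21.7 kb in replicate 2. The median score was 1.09 in replicate 1 and 1.14 in replicate 2 (1.12 ± 0.034). Wider regions scored higher, with a Spearman correlation of width and score of 0.718 in replicate 1 and 0.688 in replicate 2 across regions. Width and score come from the same caller, so they may be linked by its method. The link was not particular to X. By the mean of both replicates it was 0.703 on X, 0.692 on 2L, 0.720 on 2R, 0.702 on 3L and 0.673 on 3R. Strong regions were hardly ever narrow. Of the 448 replicate 1 regions scoring at least 1.0, 1 was narrower than 2 kb, X:11488885-11490254 with a score of 1.04, a piece of a 10.4 kb replicate 2 region. In replicate 2, 0 of 450 such regions were. Among regions scoring below 0.8, 133 of 243 in replicate 1 and 105 of 211 in replicate 2 were narrower than 2 kb. The 196 highest-scoring regions of replicate 1 had a median width of 4287 bp and held 34.4% of all bases under matched regions, and the 196 lowest-scoring had 1855 bp and 13.2%.

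**Figure D5:**
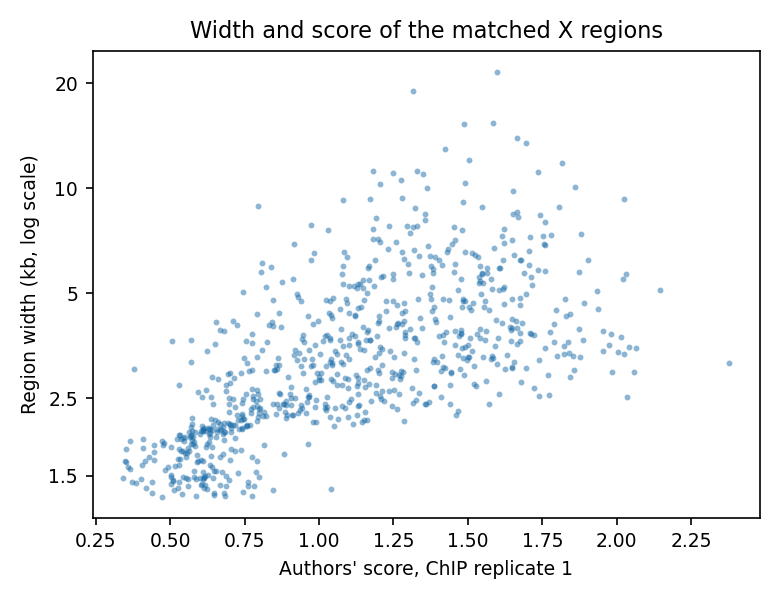
Width in kb on a log scale (vertical) against the authors' score (horizontal) of the 783 matched X regions in ChIP replicate 1, 1 point per region (Spearman correlation 0.718). Of the 448 regions scoring at least 1.0, 1 is narrower than 2 kb, and the widest region (21.5 kb) has a score of 1.60.

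The strongest X region, X:5630109-5633266, was 3158 bp wide and scored 2.38 in replicate 1 and 2.26 in replicate 2, within a run of 6. Second by mean score was X:18675999-18679395, with 2.01 in replicate 1 and 2.19 in replicate 2. A lone region 12.4 kb from its nearest neighbour, X:19413571-19418071, scored 1.94 and 2.23. Another lone region, X:5929376-5934490, scored 2.14 and 1.99 and stood 27.9 kb from the next matched region. The remaining ones of the 10 with the highest mean score were X:6147830-6151320, named above, and regions starting at 6586551, 11779913, 18263867, 19384530 and 20120569. All 10 scored from 1.89 to 2.38 in replicate 1 and from 1.99 to 2.26 in replicate 2, each with 1 partner. Of these 10, 9 were narrower than 5.2 kb, 4 were in runs of at least 3, 4 were in pairs and 2 were alone. Over all matched regions of replicate 1, 42.7% were in runs of at least 3, 26.6% in pairs and 30.8% alone. The 75th percentile of their width was 4489 bp, so most were narrower than 5.2 kb as well.

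By replicate 1 width, the widest region was X:1352650-1374159, 21.5 kb in replicate 1 and 21.7 kb in replicate 2, with scores of 1.60 and 1.47. X:12790360-12805701, 15.3 kb in replicate 1 and 15.6 kb in replicate 2, scored 1.59 and 1.67. X:11462901-11478170 was 15.3 kb and 15.7 kb wide and scored 1.49 in replicate 1 and 1.504 in replicate 2. These were single regions in each list. The other 2 of the 5 widest by replicate 1 were split in replicate 2. X:19529226-19548148, 18.9 kb in replicate 1, overlapped 2 replicate 2 regions that together spanned 17.9 kb. X:8034828-8048785, 13.96 kb in replicate 1, overlapped 2 that spanned 14.9 kb. The reverse also occurred. Replicate 2 had a region of 17.679 kb at X:1751701-1769379 that overlapped 4 replicate 1 regions, and one of 17.654 kb at X:6566548-6584201 that overlapped 3. Replicate 1 had 59 matched regions of 7 kb or more and replicate 2 had 71, which held 19.4% and 22.6% of the bases under matched regions. The 5 widest by replicate 1 scored from 1.31 to 1.66 there, with 4 of them among the 196 highest-scoring regions. The highest of the 5 ranked 84 of 783.

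Stretches of at least 100 kb with no region of either list, matched or not, numbered 47 and summed to 8.16 Mb, or 36.4% of X. Their median length was 153 kb, and 12 were at least 200 kb long. The longest, of 374 kb, lay at X:21946356-22320486, close to the centromere end of the sequence. It was followed by 363 kb at X:7231755-7595219, 343 kb at X:21501996-21844684, 266 kb at X:20397045-20662853 and 257 kb at X:12098588-12355861. Of these 5, 3 lay at or beyond position 20397045, a bound read off the stretches themselves. Whether long stretches gather on that side of X was not tested. Some lengths rested on 1 list, since the stretch from 12098588 was 426 kb long in replicate 1 alone and 257 kb in replicate 2 alone. The stretch from 21946356 was 374 kb in replicate 1 alone and 461 kb in replicate 2 alone. In the combined list, the longest empty parts at the 374 kb and 363 kb stretches were 166 kb each, that at the 257 kb stretch was 165 kb and that at the 266 kb stretch was 128 kb. The combined list placed little in the empty stretches, covering 1.56% of their bases. It had 78 regions wholly inside them, which were narrow (median 1308 bp) and weak (median score 0.420, highest 0.649). Wholly inside 13 of the 47 stretches it had 0, among them the 343 kb one.

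The empty stretches divided X into 48 occupied blocks, with a median length of 180 kb and a median of 11 matched regions. The fullest 5 blocks took up 23.3% of X and held 297 of the 783 matched regions (37.9%). The largest number, 87, was in a block of 1264 kb at X:1080133-2343722, and 75 were in one of 1274 kb at X:15589790-16863823. At the other extreme, 4 blocks held a single matched region. One of these was the 15.3 kb region at X:12790360-12805701, the third widest in replicate 1, which had 129.9 kb without any region of either list on one side and 175 kb on the other. The other 3 were X:2841147-2843379, scoring 0.726 in replicate 1 and 0.802 in replicate 2, X:13888839-13892065, scoring 0.976 and 1.04, and X:20662854-20664896, scoring 0.610 and 0.497. These 3 scored below the X median in each list, and all 4 were singled out after their values were seen. Matched regions reached both ends of the assembled sequence. The first began at base 81, and the last ended at 22416688, 6139 bp before the end, in a run of 3 that scored up to 1.65 in replicate 1.

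The 783 matched regions of replicate 1 had medians of 3120 bp and 1.09 in width and score, and the 105 without a partner were narrower and weaker, at 1508 bp and 0.649. In replicate 2 the medians were 3422 bp and 1.14 for matched regions, and 1553 bp and 0.560 for the 145 unmatched ones. In each list, 0 of them scored above the median of its matched regions. A narrow region offers fewer bases for an overlap, so width and matching are not independent. Of the matched regions, 30.8% in replicate 1 and 31.1% in replicate 2 had no matched neighbour within 5 kb. Unmatched regions lay a median of 4.59 kb in replicate 1 and 2.60 kb in replicate 2 from a matched region of the same list. Within 5 kb of one lay 53 of the 105 unmatched regions in replicate 1 and 101 of the 145 in replicate 2. Most were kept in the combined list, 96 of 105 and 144 of 145.

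All 783 matched regions overlapped a region of the authors' combined list. That list is taken here to pool the same 2 ChIP libraries, so the overlap and the like scores are no independent check. It had 1316 regions on X, of which 433 overlapped no region of either replicate list and 669 held a matched region of replicate 1. Of the 669, 95 held 2 or more, up to 5, so 212 matched regions were merged there with a neighbour. For the 569 matched regions that stood alone in 1 combined region, the combined score followed that of replicate 1 with a Spearman correlation of 0.966. It was lower by a median of 0.081 (combined minus replicate 1: -0.081), and the combined region was wider by a median of 524 bp. Combined regions that held a matched region had medians of 1.05 in score and 4323 bp in width, and those without one had 0.420 and 1465 bp.

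Set beside the same measures for regions matched in the same way on the 4 large autosomal arms, X lay within the arms' range on some and outside it on others. No test of these differences was made, because regions of 1 library are not replicates. The median score was 1.12 ± 0.034 (SD, n = 2) on X, and 1.07 ± 0.029 on 3R, 1.02 ± 0.039 on 3L, 1.01 ± 0.035 on 2L and 0.977 ± 0.052 on 2R. X had the highest of the 5 medians in each list, with 1.09 on X and 1.05 on 3R in replicate 1, and 1.14 on X and 1.09 on 3R in replicate 2. The median width was 3271 bp ± 214 on X and ran from 2964 bp ± 168 on 2L to 3080 bp ± 65 on 3R among the autosomal arms. X differed from 3R by less than the SD on X, but replicate 2 had the larger median on X and on every arm, which enters these SDs. Within each list X had the largest median width, with 3120 bp on X and 3034 bp on 3R in replicate 1. In replicate 2 these were 3422 bp on X and 3126.5 bp on 3R. Median gaps were 6.01 kb ± 0.082 on X and 6.62 kb ± 0.13 on 2R, the nearest arm, with 6.94 kb ± 0.083 on 2L, 7.32 kb ± 0.080 on 3R and 8.25 kb ± 0.092 on 3L. Runs of at least 3 held 43.6% ± 1.3 of regions on X, and from 36.9% ± 0.41 on 3L to 40.7% ± 0.32 on 3R. Covered share was 13.3% ± 0.41 on X, below 13.99% ± 0.44 on 2R, with 12.1% ± 0.35 on 3R. Stretches of at least 100 kb empty in both lists took up 36.4% of X, less than the 39.1% of 2L and more than the 32.0% of 3R, 30.7% of 3L and 23.8% of 2R. The share of replicate 1 regions with a partner was 88.2% on X and between 90.1% and 91.9% on the 4 arms, while in replicate 2 X, at 83.9%, fell between the arms' 81.9% and 88.7%.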

How the data were processed

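The aligner was Bowtie 0.12.7, per the submitters' processing notes. Positions and contents are as the file headers state: the deposited lists are regions of significant enrichment on FlyBase release 5, and each region carries 1 score from the authors' caller. Not given in the sources used here are the caller, its threshold, the score's normalization and how the combined list was made. Read depth is unknown from such lists, so no floor is given for a missing region. No file of the inputs was used, and they enter only through the authors' calls. Embryos were formaldehyde-fixed, per the labels' protocols.

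X regions were matched between lists by an overlap of at least 1 bp. Gaps are the bases between neighbouring regions, runs join gaps of at most 5 kb, and windows are 500 kb. A region is counted in the window of its midpoint. For covered shares, the bases of a region that crosses a window border are split between the windows. The tools were SciPy 1.17.1, pandas 2.3.3, NumPy 2.4.6 and Python 3.11.15, and the calculations were checked on simulated lists. No test was run across the 2 replicates or across regions, which are not replicates, and values carry the SD of both replicates, which may be technical. Whether the replicates were separate embryo collections is not in the labels. The set of regions and its measures were chosen with earlier results of these data known. Named are the 10 highest mean scores, the 5 widest regions, the 5 largest runs, the 5 longest empty stretches, and the 3 densest and 3 emptiest windows; others were picked after their values were seen.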

Additional observations from a re-analysis of the deposited data

How the results depend on the processing

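No paired analysis was possible because the inputs have no list here and no result comes from a test. With 1 replicate left out, all X regions of the other list entered, and the covered share of X was 13.7% to 14.6%, the median width 2867 to 3019 bp, the median score 0.999 to 1.01, the median gap 4.70 to 5.31 kb, the share in runs of at least 3 47.1% to 53.4%, and the share of X in empty stretches 40.3% to 41.4%. The 50% of regions with the highest scores gave 425 matched regions, a covered share of 9.26%, a median width of 4132 bp, a median score of 1.42, a median gap of 12.01 kb, 25.7% in runs, 57.9% of X empty, 32.2% of windows holding 50% of regions, and a score correlation of 0.831. In the combined list these were 20.4% covered, 2207 bp, a score of 0.516, 3.25 kb, 65.3% in runs, 23.5% empty and 37.8% of windows. An overlap of at least 50% of the shorter region gave a median gap of 6.44 kb, 41.9% in runs and a score correlation of 0.900. Regions joined over both replicates, a setting added after seeing the data, gave 14.4% covered, 3726 bp, 6.94 kb and 40.8% in runs, and one-to-one pairs, also added, a correlation of 0.942. Runs with gaps up to 2 kb held 20.6% of regions and with gaps up to 10 kb 68.5%. Windows of 200 kb gave 27.0% and of 1 Mb 39.1%. Empty stretches took up 52.9% of X from 50 kb and 14.2% from 200 kb. Means in place of medians gave 3870 bp and 25.3 kb, and bases under both replicates 12.2%. Of 59 alternative values for these results, 14 moved by less than the SD of the replicates or, for counts, less than 1.5 times.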
